A study of Mus musculus with 12 samples.

Results

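The smooth muscle programme of the testis was followed through 29 genes, taken by symbol from a list of peritubular myoid and smooth muscle genes. All 29 were found among the 20788 genes of the deposited table, and all 29 passed the filter on low counts that left 16395 genes for testing. The study sequenced total RNA from testes of F1 mice of a strain labelled IRC, in which the long non-coding RNA lncRNA8276 was manipulated with virus. There were 4 groups of 3 libraries, named by the labels as 5NC, 8276OV (a virus overexpressing lncRNA8276), 3NC and 8276KD (a virus inhibiting it). The 5NC libraries were compared with the overexpression libraries and the 3NC libraries with the knockdown libraries, following the order in which the design text names them, and 5NC and 3NC are taken here as controls. No further allele, agent, dose or age is given for any group. The labels do not say that the 3 libraries of a group came from separate animals, so the p-values below measure the spread between these libraries, which may be technical. Levels of lncRNA8276 were not analysed here. In whole-testis RNA, fewer cells of a type and less RNA per cell cannot be told apart.

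Peritubular myoid cells are flat, smooth-muscle-like cells that wrap the seminiferous tubule, and their contraction moves fluid and immotile sperm along it. Contraction runs on smooth muscle actin and myosin. It is started when calcium signalling activates myosin light chain kinase and is ended by a myosin phosphatase, and the genes of this apparatus are switched on by serum response factor with its coactivator myocardin. The same cells receive desert hedgehog from Sertoli cells through the receptor Patched1, endothelin through the type A receptor, and platelet-derived growth factors, and they lay down part of the tubule's basement membrane and matrix. Most of these genes are not exclusive to myoid cells: vessel walls, the testis capsule and the wall of the epididymal duct contain smooth muscle too, and some of the receptor and matrix genes are also active in Leydig and other stromal cells.

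Library totals ran from 13485479 to 15771655 estimated counts, with the lowest 3 in 5NC replicates 2 and 3 and overexpression replicate 2. For these genes 3 libraries stood apart. Knockdown replicate 1 had the highest level of 12 of the 29 genes, 3NC replicate 2 had the highest level of 11, and 3NC replicate 3 had the lowest level of 17. 3NC replicate 2 also had the lowest median correlation with the other libraries over all tested genes, 0.954, against 0.98 to 0.988 for the others. The 5 members with the smallest p in the knockdown comparison are therefore also given without knockdown replicate 1 or without 3NC replicate 2. The medians of all members and of the contractile genes are given without each of the 3 libraries. For other members, such as Acta2 and Ppp1r12b, only the levels by library are given.

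No member passed the test in any comparison. By edgeR's quasi-likelihood test with Benjamini-Hochberg adjustment over all 16395 genes, 0 of 29 members had an adjusted p below 0.05 in overexpression against 5NC, where 0.476% of all tested genes did, and 0 of 29 in knockdown against 3NC, where 0.0183% did. The 5NC and 3NC controls differed in 0 of 29 members, against 0.244% of all genes, and the difference between the overexpression effect and the knockdown effect passed for 0 of 29, against 0.0183%. At an unadjusted p below 0.05 the members numbered 2, 7, 2 and 2 in these 4 comparisons, or 6.9%, 24.1%, 6.9% and 6.9% of them, beside 15.3%, 8.69%, 12.9% and 6.73% of all tested genes. DESeq2 called 1, 0, 0 and 0 members and limma-voom 0 in each. The 1 gene called by DESeq2 was Synm, lower with overexpression.

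**Figure D1:**
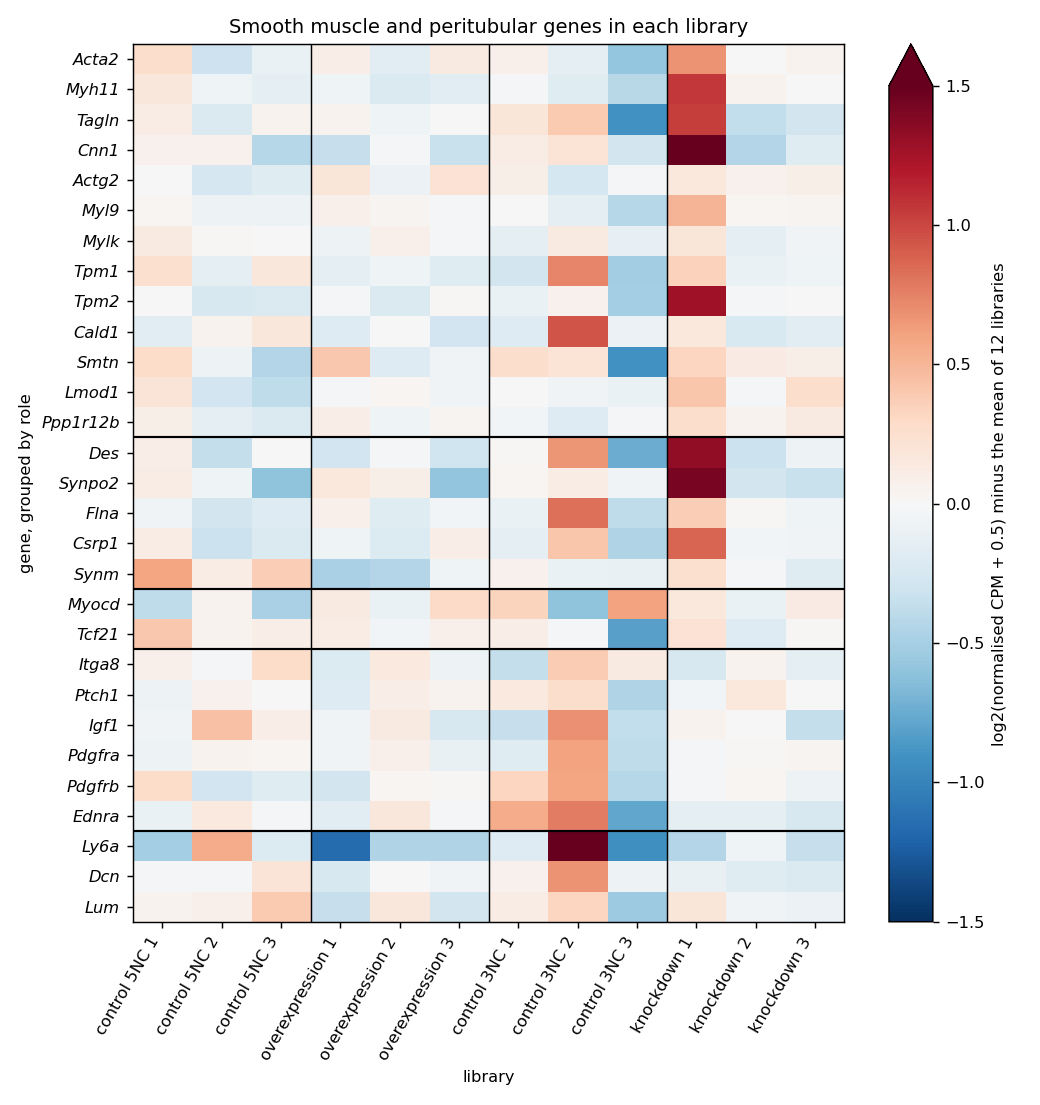
Each cell shows the log2 of normalised CPM (counts scaled to library size) plus 0.5 in 1 library (columns, grouped as 5NC, overexpression, 3NC and knockdown) minus that gene's mean over the 12 libraries (rows, grouped by role). Knockdown replicate 1 is above the mean for all 13 contractile genes, 3NC replicate 2 for all 6 ligand and receptor genes, and 3NC replicate 3 is above it for 2 of the 29 genes.

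Levels are given as normalised CPM, with library sizes scaled by the trimmed mean of M-values, and levels of different genes are compared only per kilobase of exon. On that per-length scale Actg2, the gamma smooth muscle actin of visceral muscle, which haploid germ cells also transcribe, was the most abundant member at 150 CPM per kilobase. Myl9, the regulatory light chain of smooth muscle myosin, followed at 32.1, Acta2, the alpha smooth muscle actin most used to mark myoid cells, at 20.0, and Ly6a, a stromal surface protein also known as Sca-1, at 18.5, the last of these raised by 1 library. Myh11, the smooth muscle myosin heavy chain, reached 4.23 CPM per kilobase, and Mylk, the kinase of its light chain, 5.75. At the low end stood Itga8, an integrin alpha chain of myoid cells, at 0.512, the coactivator Myocd at 0.196 and Synpo2, an actin-bundling protein, at 0.114. Mylk, Actg2 and Ppp1r12b, a myosin phosphatase targeting subunit, varied least, with highest to lowest library ratios of 1.26, 1.40 and 1.40, whereas Cnn1, Des and Synpo2 varied by 4.63, 4.91 and 6.22 times and Ly6a by 46.1 times. Every member had counts in all 12 libraries, though Myocd and Synpo2 had as few as 10 estimated counts in a library. Which cells these reads came from was not tested.

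The first comparison asked whether the virus overexpressing lncRNA8276 was accompanied by a change in these genes. For each of the 13 contractile genes the levels in the 2 groups overlapped. Acta2 was at 51.6, 34.7 and 40.2 CPM in the 5NC libraries and at 46.2, 38.2 and 47.4 in the overexpression libraries. Myh11 was at 34.9, 29.6 and 28.0 in 5NC and at 29.6, 26.7 and 27.5 in overexpression. Both sets of ranges overlapped, and the group means were 42.2 ± 8.63 and 43.9 ± 5.01 CPM for Acta2 and 30.8 ± 3.65 and 27.9 ± 1.53 for Myh11 (SD, n = 3 libraries). Tagln, the actin-binding transgelin, and Cnn1, calponin, which dampens myosin's ATPase, had means of 12.4 and 12.5 CPM and of 3.71 and 3.32 CPM. The median log2 fold change of the 13 contractile genes was 0.06, with 8 of 13 above 0, and that of all 29 members was -0.03, with 12 above 0, beside -0.01 for all tested genes.

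Synm was the exception closest to the threshold. It encodes synemin, a large intermediate filament protein that links desmin filaments to the cell's anchoring sites, and lies at chr7:67730160-67759742 on GRCm38. Its level was 47.3, 33.7 and 40.2 CPM in the 5NC libraries and 22.1, 22.8 and 29.8 in the overexpression libraries, so every overexpression library was below every 5NC library. The means were 40.4 ± 6.76 and 24.9 ± 4.24 CPM (SD, n = 3). The log2 fold change was -0.70 ± 0.16 (SE) with an adjusted p of 0.0762 by edgeR. Synm passed under the replicate block (adjusted p = 0.0475), with scaling by total counts only (0.0478) and in DESeq2 (0.00392), and over the other alternatives, with 3NC put in place of 5NC left aside, its adjusted p ran from 0.0778 to 0.299. Because the 2 groups did not overlap, a split of these libraries by their total could only give the same direction. The part of library total in this difference was not tested.

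Of the 4 groups, 5NC had the highest mean of Synm. The 3NC libraries had 32.6, 29.1 and 28.7 CPM and the knockdown libraries 36.9, 30.9 and 27.5. All 3 of the 5NC libraries were above all 3 of the 3NC libraries, with a log2 fold change of 0.42 ± 0.16 and an adjusted p of 0.305 by edgeR, and the comparisons of 5NC with overexpression and with 3NC share the 5NC libraries. Set against 3NC in place of 5NC, overexpression differed in Synm by -0.27 on the log2 scale, with an adjusted p of 0.705. The exons of Synm share 84 bases with Ttc23 on the opposite strand. No source used here says whether counting was stranded, and a part of the reads may belong to either gene.

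**Figure D2:**
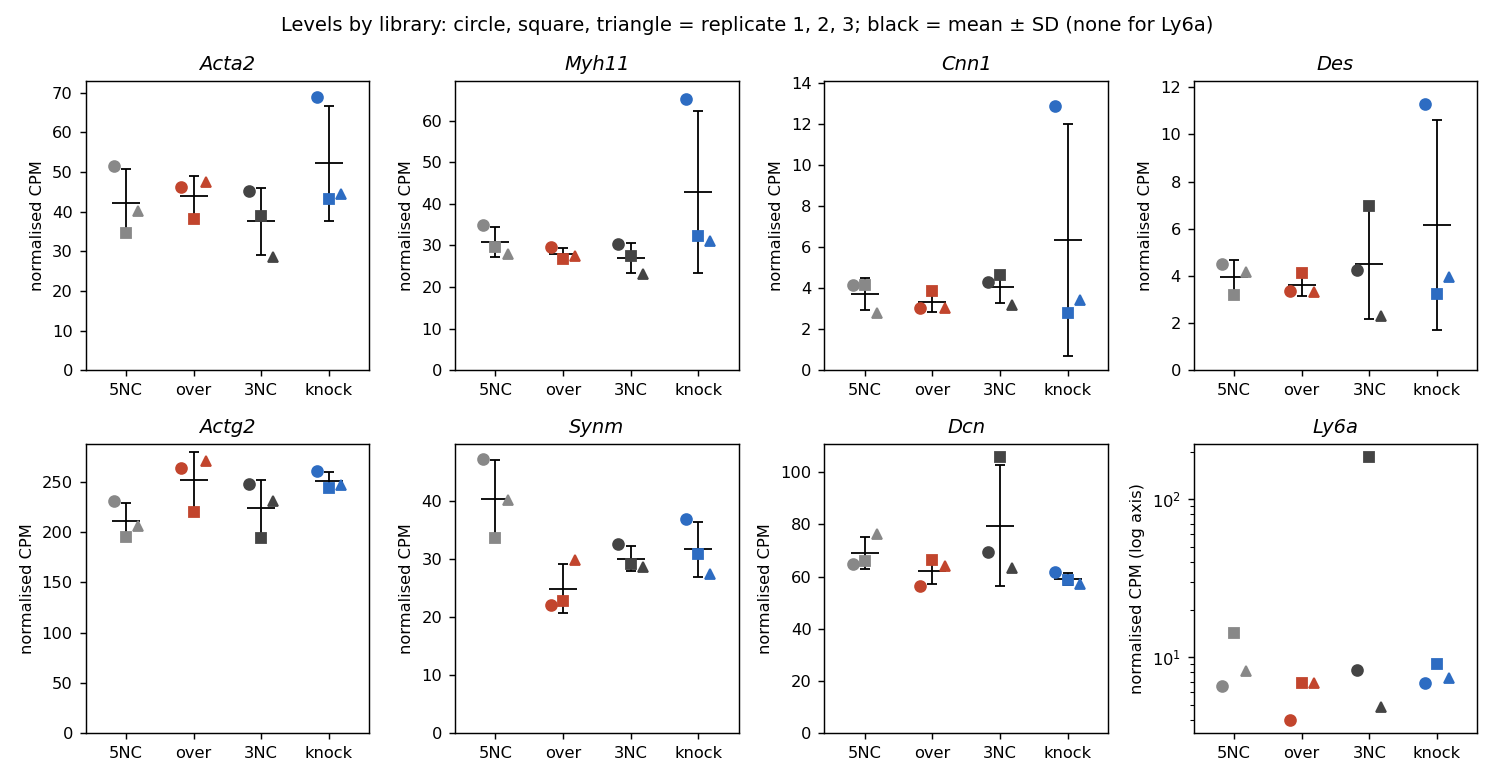
Normalised CPM of 8 members in each library, by group (5NC, overexpression, 3NC, knockdown), with circles, squares and triangles for replicates 1, 2 and 3 and black bars for mean ± SD (n = 3 libraries). Ly6a has a log axis and no mean. Overexpression has the lowest group mean of Synm, and the circle of knockdown replicate 1 stands above its group for Acta2, Myh11, Cnn1 and Des.

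Of the other members, Actg2 had the second smallest p in this comparison, with 231, 195 and 206 CPM in 5NC and 264, 220 and 271 in overexpression. These ranges overlapped, and the log2 fold change was 0.26 ± 0.11 with an adjusted p of 0.291 by edgeR. Lum, the matrix proteoglycan lumican, differed by -0.35 ± 0.27 with an adjusted p of 0.596, Myocd by 0.54 ± 0.41 with 0.598, and Ppp1r12b by 0.12 ± 0.10 with 0.672, all by edgeR. Myocd was at 0.817, 1.27 and 0.719 CPM in 5NC and at 1.38, 1.10 and 1.59 in overexpression, a low level with overlapping ranges. Against the 3NC libraries, with 1.66, 0.626 and 2.10 CPM, its difference was -0.10. The 6 ligand and receptor genes, Igf1, Pdgfra, Pdgfrb, Ptch1, Ednra and Itga8, had a median of -0.03 with 0 of 6 above 0, and the 3 matrix and surface genes, Dcn, Lum and Ly6a, a median of -0.35 with 0 of 3 above 0. In this comparison 0 of 29 members (11.7% of all tested genes) had every overexpression library above every 5NC library, and 1, Synm, or 3.45% of members (10.3% of all tested genes), had every one below. Both shares of members were under those of all genes.

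Skeletal muscle markers contained genes that passed. Of 12 listed, 8 were tested, and Ryr1, the calcium release channel of striated muscle, and Xirp1, an actin-binding protein of striated muscle, were the 2 that passed. Both were higher with overexpression and are named because they passed, after their values were seen. Actn3 was also higher in every overexpression library than in every 5NC library, at 5.85, 4.7 and 6.76 CPM against 4.21, 3.11 and 3.16. Of all tested genes 11.7% were separate in this way. In 3NC Actn3 was at 4.71, 5.45 and 6.49 CPM, which overlapped with overexpression. The 5NC and overexpression groups overlapped for Acta1, Ckm, Mylpf, Tnnc2, Myh1, Myh2, Myh4 and Tnni2. Tnnt3, near 0, was lower in every overexpression library. The median log2 fold change of the 8 tested genes was 0.47. Ryr1 was at 6.03, 5.79 and 4.46 CPM in 5NC and at 17.9, 10.9 and 19.3 in overexpression, with a log2 fold change of 1.56 ± 0.28 and an adjusted p of 0.0353 by edgeR. Xirp1 was at 2.58, 2.19 and 1.65 CPM in 5NC and at 6.31, 4.04 and 5.5 in overexpression, with 1.30 ± 0.23 and 0.0331. Both calls were lost without any 1 of the 3 5NC libraries or without overexpression replicate 1 or 3, with adjusted p up to 0.222 for Ryr1 and 0.201 for Xirp1. With 3NC in place of 5NC the log2 fold changes were 1.5 and 0.67, with adjusted p of 0.385 and 0.696. The Ryr1 call was also lost in limma-voom (0.0586), and the Xirp1 call in the fit of only the libraries compared (0.0549). Des, the desmin of both smooth and striated muscle, was at 4.52, 3.18 and 4.17 CPM in 5NC and at 3.35, 4.11 and 3.32 in overexpression, which overlapped.

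**Figure D3:**
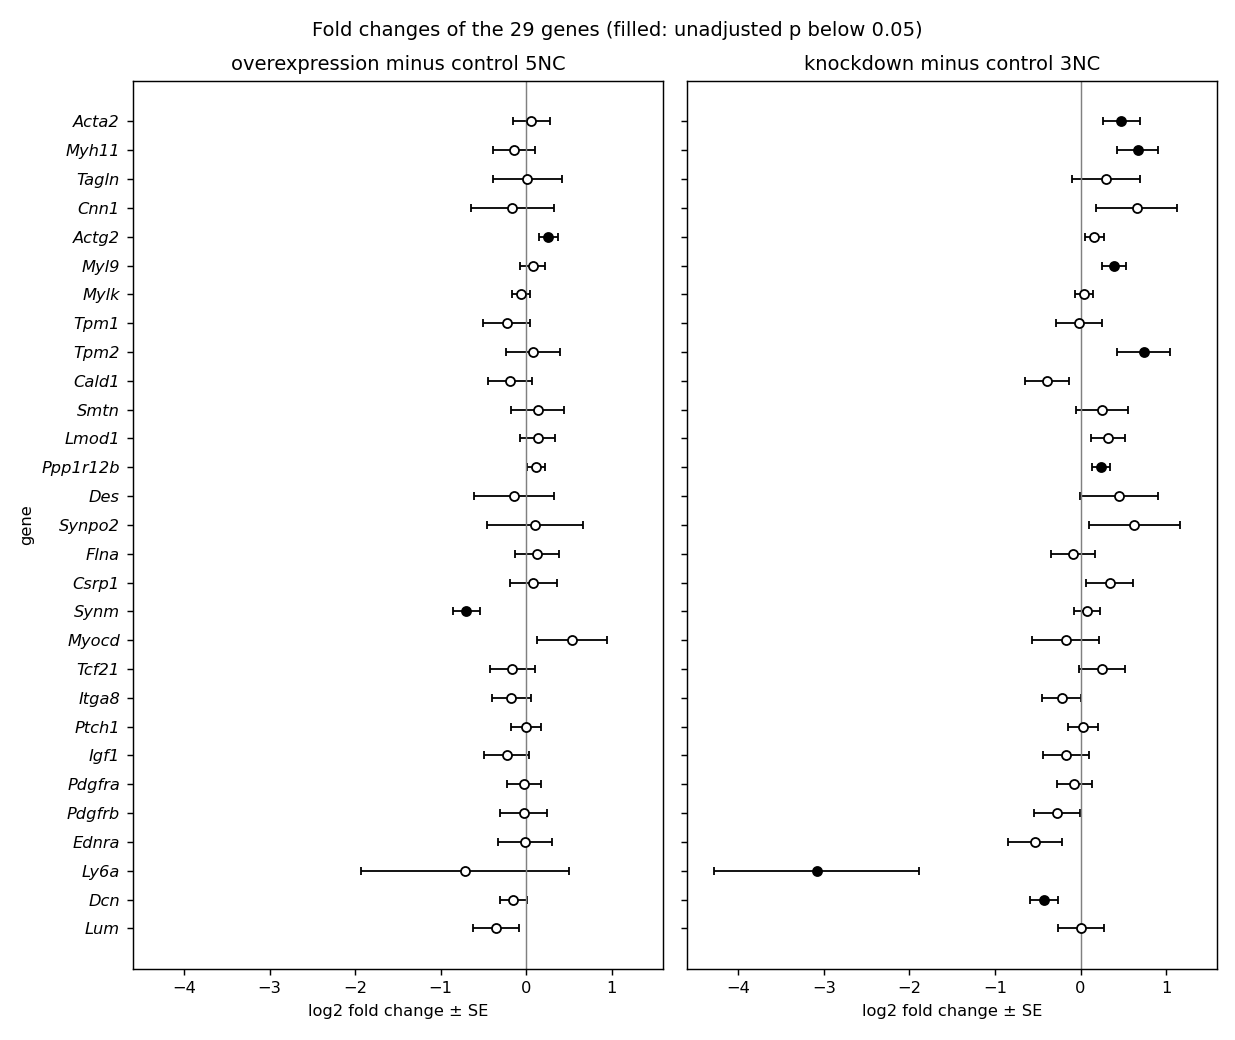
Log2 fold change ± SE by edgeR of the 29 members, grouped by role, for overexpression minus 5NC (left) and knockdown minus 3NC (right). Filled points have an unadjusted p below 0.05: 2 genes on the left and 7 on the right, none of which passed after adjustment.

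The second comparison set knockdown against 3NC, and here the contractile genes leaned to higher levels in the knockdown group, with 1 knockdown library far above the others. Myh11 was at 30.4, 27.4 and 23.1 CPM in the 3NC libraries and at 65.3, 32.2 and 31.0 in the knockdown libraries. The groups did not overlap, yet knockdown replicates 2 and 3 were only just above the highest 3NC library, and the means were 27.0 ± 3.64 and 42.8 ± 19.4 CPM (SD, n = 3). Its log2 fold change was 0.67 ± 0.24 with an adjusted p of 0.559 by edgeR. Without knockdown replicate 1 it was 0.23 ± 0.14, with an adjusted p of 0.818.

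Myl9 was at 37.2, 33.6 and 27.3 CPM in 3NC and at 53.0, 37.8 and 38.2 in knockdown. Again the groups were separate by a narrow margin, with a log2 fold change of 0.39 ± 0.14 and an adjusted p of 0.559 by edgeR, and of 0.22 ± 0.13 without knockdown replicate 1. Tpm2, the beta tropomyosin that lies along the actin filament, was at 9.69, 11 and 7.17 CPM in 3NC and at 25.8, 10.2 and 10.4 in knockdown. Its groups overlapped, with a log2 fold change of 0.74 ± 0.31 and an adjusted p of 0.559 by edgeR that became 0.15 ± 0.18 and 0.872 without knockdown replicate 1. Ppp1r12b was at 40.2, 36.1 and 40.8 CPM in 3NC and at 49.7, 43.0 and 45.7 in knockdown, so here too replicates 2 and 3 were above all 3 of the 3NC libraries. Acta2 was at 45.2, 38.8 and 28.6 CPM in 3NC and at 68.9, 43.3 and 44.4 in knockdown, where knockdown replicates 2 and 3 lay inside the 3NC range.

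The 13 contractile genes had a median log2 fold change of 0.30, with 11 above 0, and the 5 cytoskeletal genes, Des, Synm, Synpo2, Flna and Csrp1, a median of 0.34 with 4 above 0. The 6 ligand and receptor genes had a median of -0.20 with 1 above 0, and the matrix and surface genes one of -0.43 with 1 of 3 above 0. Over all 29 the median was 0.08, with 18 above 0, beside -0.03 for all tested genes. Without knockdown replicate 1 the median of all 29 was -0.09 with 10 above 0, and that of the contractile genes 0.15 with 8 of 13 above 0. Without 3NC replicate 2 these became 0.30 with 24 of 29 above 0, and 0.42 with 13 of 13. Without both libraries they were 0.13 with 20 of 29, and 0.21 with 10 of 13. The direction of the list's median thus depended on which library was left out, and 0 members passed in each of these fits by edgeR, with 1, 7 and 1 members at an unadjusted p below 0.05.

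**Figure D4:**
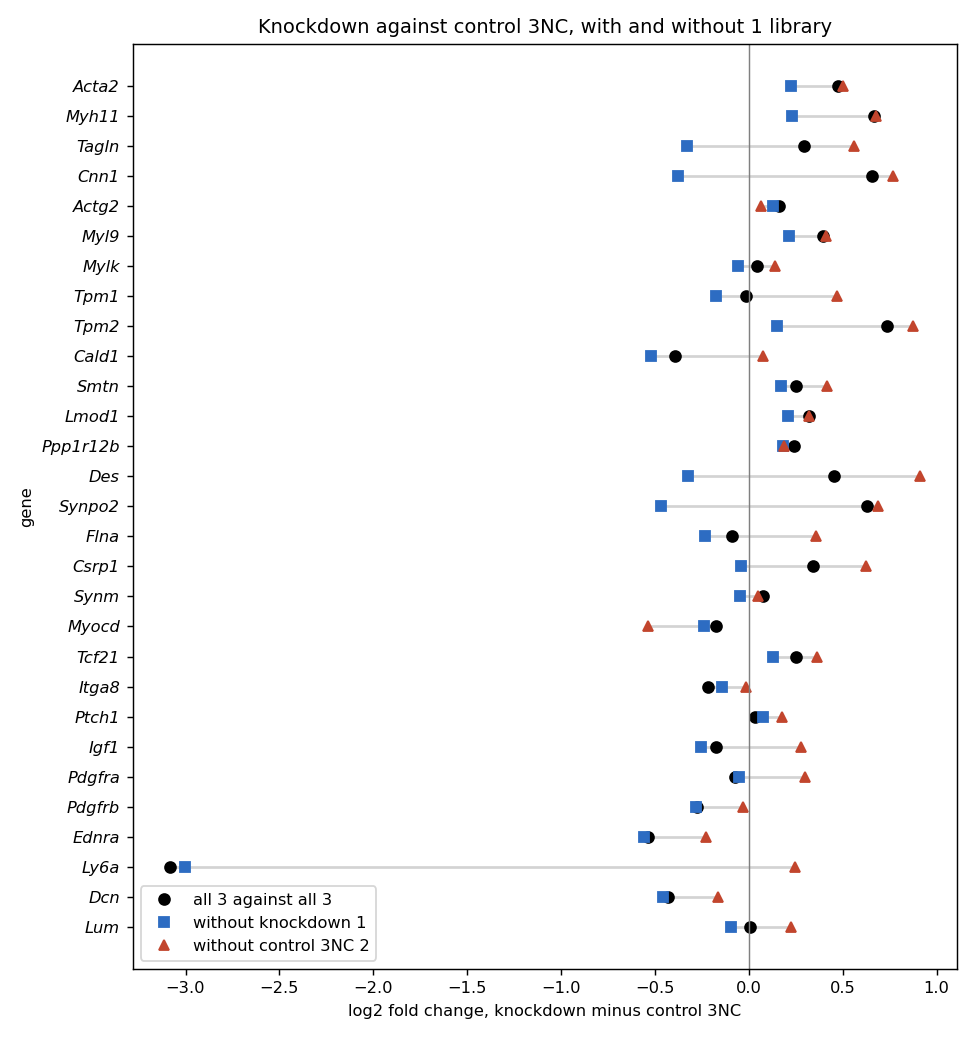
Log2 fold change of each member for knockdown minus 3NC, by edgeR with all libraries (black circles), without knockdown replicate 1 (blue squares) and without 3NC replicate 2 (red triangles). Contractile genes such as Myh11, Cnn1 and Tpm2 shift to the left without knockdown replicate 1, and Ly6a moves from -3.08 to 0.25 without 3NC replicate 2.

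Every knockdown library was above every 3NC library for 3 members, Myh11, Myl9 and Ppp1r12b, or 10.3% of members (6.48% of all tested genes), and below for 1, Dcn, or 3.45% (6.57% of all tested genes). Dcn, the collagen-binding proteoglycan decorin, was at 69.4, 106 and 63.2 CPM in 3NC and at 61.6, 58.5 and 57.3 in knockdown. The log2 fold change was -0.43 ± 0.16 with an adjusted p of 0.559 by edgeR, and -0.17 ± 0.10 without 3NC replicate 2, the library at 106 CPM. The 3 knockdown libraries were close together and just under the 2 lower 3NC libraries.

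Knockdown replicate 1 was set apart by its contractile and cytoskeletal genes. Against the median of the other 11 libraries, 8 members were at least 1.5 times higher in it, namely Cnn1 (3.76 times), Synpo2 (3.48), Des (2.86), Tpm2 (2.53), Myh11 (2.21), Tagln (2.08), Csrp1 (1.93) and Acta2 (1.59), while 4.68% of all genes were. Cnn1 was at 12.9 CPM in this library and between 2.79 and 4.63 in the other 11, and Des at 11.3 against 2.30 to 6.95. All 13 contractile and all 5 cytoskeletal genes were above their own mean over the 12 libraries there, but only 1 of the 6 ligand and receptor genes and 1 of the 3 matrix and surface genes. Pdgfra, a platelet-derived growth factor receptor of stromal and Leydig cells, was at 19.1 CPM in it, and Ptch1, the hedgehog receptor, at 11.2, both inside the range of the other knockdown and control libraries.

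Markers of the epididymis, which is a muscular duct attached to the testis, moved with the contractile genes in that library. Lcn8, a lipocalin secreted by the upper epididymis, was at 40.7 CPM in knockdown replicate 1 and at 0 in the other 11 libraries. Lcn5, a related lipocalin, was at 25.1 CPM there, at 2.40 in knockdown replicate 2 and at 0.133 or less elsewhere. All 10 listed epididymis and duct genes had counts in knockdown replicate 1, against 4 to 8 in the others, and their summed level was 526 CPM against 67.4 to 375. Aqp9, a water channel also on that list, was at 75.5 CPM there, within the 64.7 to 102 of the others. The highest of the other libraries, 5NC replicate 2, had more Crisp1, a sperm-binding secreted protein of the epididymis, than any library, at 240 CPM, with Cnn1 at 4.16 and Myh11 at 29.6 CPM, inside the range of the other 5NC libraries or above it by a small margin.

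Other tissue markers differed in knockdown replicate 1 as well. The 8 genes listed for the mesothelium of the testis capsule summed to 32.6 CPM against 12.3 to 21.5 elsewhere. Most of this sum was of the keratins Krt8, Krt18 and Krt19, each highest in this library, at 13, 8.62 and 4.21 CPM. Msln, Upk3b, Upk1b and Gpm6a were higher in 3NC replicate 2, and Lrrn4 was at its lowest, 2.68 CPM, in knockdown replicate 1. The 7 adipose genes summed to 73.6 CPM against 19.2 to 59.3. Of these, Fabp4 and Cfd were highest in this library, at 23.6 and 23.9 CPM, while Adipoq, Plin1, Cidec, Retn and Lep were each higher in another library. The 8 Leydig cell genes summed to 963 CPM, the lowest of all libraries, against 1090 to 2240. Among them Hsd3b1 was the exception, at 141 CPM and within the 94.9 to 148 of the other libraries. The 10 vascular mural cell genes summed to 60.2 CPM, within the 44.5 to 68.6 of the others, and the 10 endothelial genes to 55.3, within 41.0 to 71.2. The part of any of these tissues in the contractile gene levels was not tested.

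**Figure D5:**
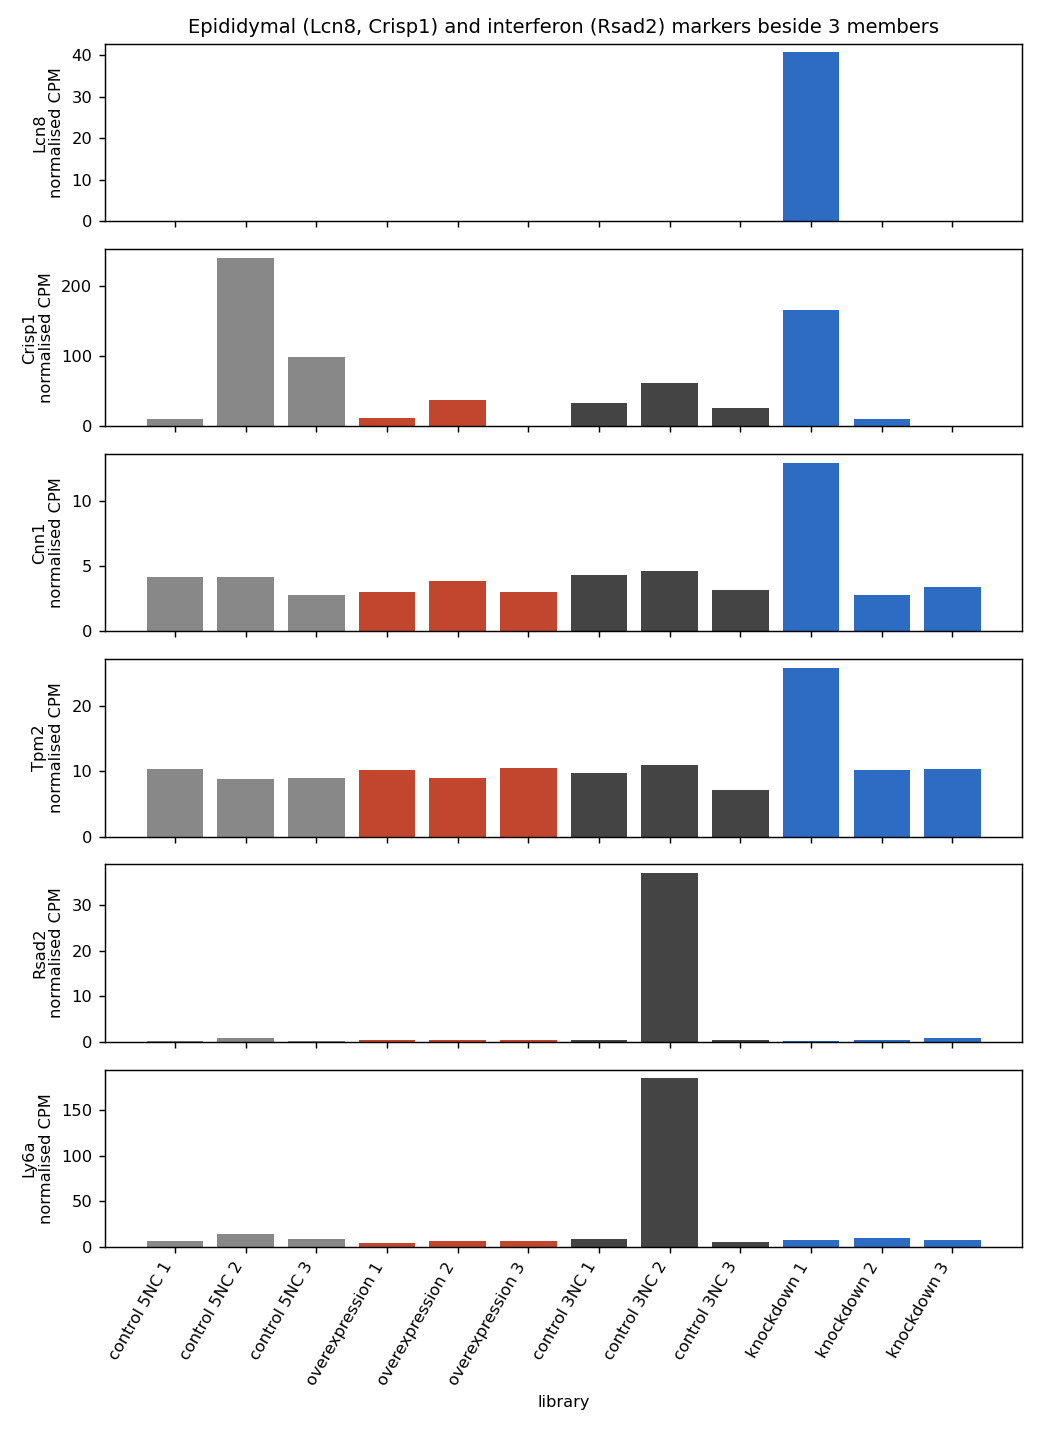
Normalised CPM by library (bars) of the epididymal genes Lcn8 and Crisp1, the members Cnn1, Tpm2 and Ly6a, and the interferon-induced gene Rsad2. Lcn8, Cnn1 and Tpm2 have their highest bar in knockdown replicate 1, Rsad2 and Ly6a in 3NC replicate 2, and Crisp1 in 5NC replicate 2.

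In 3NC replicate 2 a different set of members was high: 10 were at least 1.5 times the median of the other 11 libraries, where 14.5% of all genes were. They were Ly6a, Cald1 (caldesmon, which restrains actin and myosin; 2.16 times), Ednra (the type A endothelin receptor; 1.91), Flna (filamin A; 1.85), Tpm1 (alpha tropomyosin; 1.80), Des (1.76), Igf1 (1.69), Dcn (1.66), Pdgfrb (1.59) and Pdgfra (1.57). All 6 ligand and receptor genes and all 3 matrix and surface genes were above their mean in this library, while Acta2 and Myh11 stood at 0.872 and 0.923 times the median of the others. Of the 5 cytoskeletal genes 4 were above their mean there, and of the 13 contractile genes 7.

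Ly6a was the member with the widest spread. It was at 8.29, 185 and 4.80 CPM in 3NC, at 6.90, 9.08 and 7.38 in knockdown, at 6.54, 14.3 and 8.2 in 5NC and at 4.01, 6.83 and 6.83 in overexpression. A single library, at 185 CPM, was 26.8 times the median of the others, which did not pass 14.3 CPM. The log2 fold change of knockdown against 3NC was -3.08 ± 1.2 with an adjusted p of 0.559 by edgeR, and 0.25 ± 0.34 without that library. For 5NC against 3NC it was -2.77 ± 1.18 with an adjusted p of 0.375, and 0.56 ± 0.34 without it.

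Ly6a is known to be induced by interferon, and interferon and leukocyte genes were high in the same library. The 11 type I interferon response genes in the table summed to 479 CPM in 3NC replicate 2 against 32.2 to 134 in the other 11 libraries, with Rsad2, the antiviral protein viperin, at 37.1 CPM against 0.189 to 0.847. The 10 macrophage and leukocyte genes summed to 423 CPM against 81.4 to 111, with Ptprc, the pan-leukocyte surface phosphatase CD45, at 95.5 against 1.98 to 3.89. 5NC replicate 2 had the second highest interferon sum, 134 CPM, and the second highest Ly6a, 14.3 CPM. The part of these cells or of this response in the members' levels was not tested.

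Many members were low in 3NC replicate 3. In it 13 members were at most 0.75 times the median of the other 11 libraries, where 13.8% of all genes were, and the median over the 29 members was 0.758 times. Smtn, the contractile-fibre protein smoothelin, was at 0.45 times, Tcf21, a transcription factor of stromal progenitors, at 0.469, Tagln at 0.496, Des at 0.559 and Ednra at 0.56, and Acta2 at 0.644. None of the 13 contractile genes was above its mean there. The coactivator Myocd had its highest level of the 12 libraries in this one, 2.10 CPM or 1.65 times the median of the others, and Itga8 (1.12 times) and Cald1 (1.05 times) were also above that median. The Leydig cell genes were also low in this library, at 1090 CPM, and the mural cell genes were at their lowest, 44.5 CPM. Without 3NC replicate 3, the median of the members for knockdown against 3NC was -0.01, with 14 of 29 above 0. That of the contractile genes was 0.275, with 9 of 13 above 0.

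The 2 controls could be compared directly, and they share libraries with each of the comparisons above. The members' median log2 fold change for 5NC against 3NC was -0.03, with 13 of 29 above 0, beside -0.02 for all tested genes. Without 3NC replicate 2 it was 0.17 with 21 of 29 above 0, and without 3NC replicate 3 it was -0.22 with 8 of 29, so its direction turned with the library left out. Every 5NC library was above every 3NC library for 1 member, Synm, or 3.45% (7.02% of all tested genes), and below for 0 members (6.17% of all tested genes). After Synm and Ly6a, Tcf21 had the smallest p, with 4.27, 3.25 and 3.38 CPM in 5NC and 3.38, 3.07 and 1.56 in 3NC, overlapping groups with a log2 fold change of 0.44 ± 0.27 and an adjusted p of 0.513 by edgeR.

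The difference between the overexpression effect and the knockdown effect was tested as 1 term. Its median over the members was -0.13, with 10 of 29 above 0, beside 0.03 for all tested genes. Synm had the smallest p, at -0.77 ± 0.22 with an adjusted p of 0.513, then Myh11 at -0.81 ± 0.34 with 0.707 and Myl9 at -0.32 ± 0.20 with 0.797, all by edgeR. For Synm the overexpression effect was -0.70 and the knockdown effect 0.08 on the log2 scale, and for Myh11 -0.14 and 0.67. Without knockdown replicate 1 the median was 0.02.

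Promoter sequences were read because the contractile genes were high together in knockdown replicate 1. Serum response factor and myocardin act on such genes through the CArG box, in which letters A or T lie between CC and GG. Promoter windows from 250 bases before to 50 bases after the start were held for 21 of the 29 members (24 windows, RefSeq, GRCm38.p6). A CArG box was present in 1 of the 24 windows, that of Myl9, or 4.17%, against 1.63% of 32851 windows of all genes. With at most 1 central letter other than A or T allowed, 3 windows held a match, those of Acta2, Myl9 and Synm, or 12.5% against 9.98%. The form reads alike on both strands, so 1 search covers both. The 3 stretches are shown because they belong to an actin and a myosin light chain that were high in knockdown replicate 1 and to the gene nearest the threshold with overexpression. They are written 5′ to 3′ on the gene's own strand, with the matches in capitals.

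Acta2, chr19:34255383-34255472, minus strand: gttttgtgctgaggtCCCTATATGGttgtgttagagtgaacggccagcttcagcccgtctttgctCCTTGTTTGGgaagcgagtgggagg
Myl9, chr2:156775288-156775389, plus strand: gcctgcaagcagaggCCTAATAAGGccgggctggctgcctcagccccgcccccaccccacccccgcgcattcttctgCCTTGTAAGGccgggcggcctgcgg
Synm, chr7:67759957-67759992, minus strand: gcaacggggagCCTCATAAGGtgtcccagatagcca

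The first bases of the matches lay 84 and 34 bases before the start of Acta2, 161 and 99 before that of Myl9 and 239 before that of Synm. Both Acta2 and Myl9 were highest in knockdown replicate 1, at 68.9 and 53.0 CPM, whereas Synm was highest in 5NC replicate 1, at 47.3 CPM. A match is a description of the letters only. The windows of Cnn1, Des and Tpm2, whose levels in knockdown replicate 1 were further above the other libraries than that of Acta2, held no match, which says only that these letters are not in those windows.

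The rest of the pathways around these genes was read from 9 lists with 126 symbols, of which 122 were in the table and 113 were tested. By edgeR, 0 of 113 passed in each of the 4 comparisons. At an unadjusted p below 0.05 by edgeR there were 13, 9, 14 and 8 of 113, beside 15.3%, 8.69%, 12.9% and 6.73% of all tested genes. Medians were -0.01, -0.07, -0.10 and 0.05 on the log2 scale. Pdgfa, a ligand of Pdgfra, came nearest: it was at 19.8, 15.2 and 15.5 CPM in 5NC and at 11.9, 10.4 and 8.75 in overexpression. The groups were separate, and the log2 fold change was -0.70 ± 0.15 with an adjusted p of 0.0685 by edgeR. It passed with scaling by total counts only (0.0468), with the replicate block (0.0288) and in DESeq2 (0.0043), and against 3NC it was -0.34. Its receptor Pdgfra was at 18.5, 20.2 and 20.0 CPM in 5NC and at 18.9, 20.7 and 18 in overexpression.

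Among the partners of myocardin, Klf4, a factor that restrains smooth muscle genes, differed by 0.55 ± 0.15 with overexpression, with an adjusted p of 0.107 by edgeR. It passed with the replicate block (0.0475), in DESeq2 (0.0164) and without overexpression replicate 2 (0.0494), and against 3NC it was 0.12. In the same comparison the 8 listed spermatid markers had a median log2 fold change of 0.31, with 4 at an unadjusted p below 0.05 by edgeR and 0 passing. Of all tested genes 15.3% were below that p. For 5NC against 3NC the median of these 8 markers was -0.24, with 3 at an unadjusted p below 0.05 by edgeR, so they also differed between the controls. Which cells of the testis the Klf4 reads came from was not tested. Among calcium and relaxation genes Prkg1, the cyclic GMP-dependent kinase, differed by 0.45 ± 0.14 with 0.145. The angiotensin receptor Agtr1a differed by -0.46 ± 0.15 with 0.154, Sufu of the hedgehog pathway by 0.31 ± 0.15 with 0.341 and the receptor Igf1r by -0.23 ± 0.11 with 0.351, all by edgeR, and none of these last 4 genes passed under any alternative run. With knockdown the smallest p among integrin alpha8 partners belonged to Spp1, osteopontin, which was at 83.6 CPM in 3NC replicate 2 and between 0.454 and 4.19 in the other 11 libraries. Its log2 fold change was -4.30 ± 1.31 with an adjusted p of 0.559 by edgeR, and -1.12 without 3NC replicate 2. That is the library in which Ly6a and the leukocyte genes were high.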

How the data were processed

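Total RNA of whole testis was sequenced in 12 libraries, 4 groups of 3. The deposited table, per its file headers, gives estimated counts per gene and library; 88.2% of the values are whole, and they were rounded to whole numbers. Per the submitters' processing notes, mm10 was the build; the aligner, counter and strand setting were not given in the sources used here. A further 18 columns, of 9 other samples, stayed out.

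Groups came from the labels. One edgeR model (R 4.3.3, edgeR 4.0.16) of group means was fitted to all 12 libraries with TMM scaling and filterByExpr (minimum count 10), quasi-likelihood tests and Benjamini-Hochberg adjustment over 16395 genes, with 0.05 as threshold. The genes left out held 0.0707% of counts. The fit was also run on counts simulated with its own dispersions and with no library set apart. That run cannot show how the fit handles libraries that stand apart. Alternatives included DESeq2 1.42.0, limma-voom (limma 3.58.1), other scalings, no filter, a replicate block and leaving out each library. With 3 libraries a group and a common dispersion of 0.0388, small changes would be missed.

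The members and the pathway and marker lists were chosen with earlier results of these data known. Test values are printed for members that pass, the 5 members with the smallest p in each construct comparison and the 3 smallest in the other 2, plus values without a doubted library; of each pathway list the gene with the smallest p may be named (some are not reported here), and markers are named by level beside a result. Names added after the values were seen are Ryr1, Xirp1 and the other skeletal muscle genes, the mesothelium and adipose genes, Hsd3b1, Lcn8, Lcn5, Rsad2 and Ptprc. Positions and exon lengths are from GENCODE M21 (GRCm38). Tagln and Ly6a had fractional counts, and exons of Tagln share 108 bases with Pcsk7 on the other strand, so both are less certain.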

Additional observations from a re-analysis of the deposited data

How the results depend on the processing

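The count of members passing was 0 in every comparison under every alternative run, except for overexpression against 5NC, where it was 1 (Synm) with scaling by total counts only, with the replicate block and in DESeq2. The member median for knockdown against 3NC ran from -0.094 to 0.299 when 1 library was left out, the highest without 3NC replicate 2 and the lowest without knockdown replicate 1. The median of the overexpression effect minus the knockdown effect ran from -0.339, without 3NC replicate 2, to 0.024, without knockdown replicate 1. Ly6a reversed without 3NC replicate 2: its leave-out values ran from -3.63 to 0.25 for knockdown against 3NC and from -3.32 to 0.56 for 5NC against 3NC, and without both knockdown replicate 1 and 3NC replicate 2 it was 0.33. With 3NC in place of 5NC, Myocd reversed to -0.10, Prkg1 to -0.041 and Igf1r to 0.046. The alternatives that swap a control or leave out 2 libraries were chosen after seeing the data. The 117 other values on the member list kept their count or moved by less than 1 SD between libraries, but near 0 some medians changed sign: knockdown against 3NC was -0.013 without 3NC replicate 3, 5NC against 3NC was 0.167 without 3NC replicate 2 and 0.002 in limma-voom, and the difference of effects was 0.013 without 3NC replicate 3. On named genes 339 values kept their direction and side of the threshold, while 9, of Synm, Pdgfa or Klf4, gained the call and 14, all of Ryr1 or Xirp1, lost it.

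Same-numbered libraries did not deviate together throughout: over 18 pairs the correlation ran from -0.152 to 0.383, with 8 above 0.1. The median over pairs of unlike number was -0.021, and 8 of 12 libraries correlated best with their own number. These values do not settle whether same numbers are paired. No label says that they are, so the main model held no replicate block. With the block, Synm passed for overexpression against 5NC (adjusted p = 0.0475 by edgeR). With the replicate block the genes passing were 269, 3, 54 and 6 in the 4 comparisons, against 78, 3, 40 and 3 without it. Counts over all genes moved more widely. For overexpression against 5NC, DESeq2 called 742, total-count scaling 163, and leaving out 1 library gave 5 to 217, the highest without overexpression replicate 2; against 3NC it was 1. For knockdown against 3NC, DESeq2 called 23, leaving out 1 library gave 1 to 9, the fit of only the libraries compared called 0, and 5NC as control gave 202. For 5NC against 3NC, DESeq2 called 305, total-count scaling 68, limma-voom 13, only the libraries compared 9, and leaving out 1 library gave 7 to 126. For the difference of effects, DESeq2 called 53, leaving out 1 library gave 3 to 12, and leaving out both named libraries gave 9. The cause of these differences was not tested.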
